A study of Mus musculus with 108 samples.

Results

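DBA2/J is an inbred laboratory strain of mice, and its testis was measured on 3 arrays of a survey of gene expression that covers 6 inbred strains and 6 tissues with 3 arrays for each combination. They were chosen as the arrays whose labels name this strain and testis, 3 of the 18 testis arrays, and their log2 signals were set against the testes of C57BL/6J, A/J, AKR/J, C3HeB/FeJ and 129S2, with 3 arrays each. All mice were males of 11 to 14 weeks, and the labels name no treatment and no engineered allele in any strain. DBA2/J, C57BL/6J, A/J, AKR/J and C3HeB/FeJ came from The Jackson Laboratory, and 129S2 came from Charles River, so for that strain breeder and genotype cannot be told apart. RNA was taken from whole testis, and each array carries the number of 1 animal in its title, although the labelling protocol speaks of pools. By these numbers, the C57BL/6J brain, heart and lung came from other animals than its testis, kidney and liver. In 129S2 these sets of organs shared only part of their animals. The comparison asks in which genes the DBA2/J testis lies apart from all 5 other strains.

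The testis makes sperm in seminiferous tubules, where spermatogonia divide, spermatocytes go through meiosis and spermatids condense their chromatin with protamines and build the acrosome and the flagellum. Sertoli cells nurse the germ cells inside the tubule, and Leydig cells between the tubules make testosterone from cholesterol under control of the pituitary. Macrophages also lie between the tubules, and the germ cells behind the Sertoli cell barrier are shielded from immune cells.

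The arrays carried the marks of adult testis in every strain. Of 11 genes of chromatin condensation, 10 lay above the array median, and the mean log2 signal of the list was 11.52 to 11.55 on the DBA2/J arrays and 11.43 to 11.56 on the 15 other arrays. Of 28 meiotic genes 24, of 26 acrosome genes 25, of 19 Sertoli cell genes 14 and of 8 Leydig cell genes all lay above the array median. The median log2 signal over the 18194 genes tested was between 6.88 and 6.95 on the 18 testis arrays. Each array was most like another array of its own strain after the mean of all arrays was removed, with a correlation across genes of 0.780 to 0.796 for DBA2/J. The number of arrays, 3 per strain, limits the precision of every value.

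For 1352 genes the DBA2/J testis was higher than the mean of the 5 other strains (7.43% of the genes tested), and for 1640 genes it was lower (9.01%), at an adjusted p under 0.05 in limma. The median difference over all genes was 0.01 on the log2 scale. The count of higher genes was 898 when the array of DBA2/J replicate 3 was left out. Most differences were small, and 57 genes were higher and 59 lower by at least 1 log2 unit. Here a gene is called apart when DBA2/J differed from each of the 5 strains in the same direction, with the largest of the 5 limma p-values adjusted over all genes under 0.05. By that rule 170 genes were apart (0.934%), 75 of them higher (0.412%) and 95 lower (0.522%). The gap of such a gene is the distance on the log2 scale between the DBA2/J mean and the mean of the nearest other strain.

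All DBA2/J arrays lay above all 15 other arrays in 270 genes (1.48%) and below them in 356 genes (1.96%), and the genes called apart were among these. The median gap was 0.58 in the higher genes, with a range of 0.23 to 2.23. In the lower genes it was -0.48, with a range of -4.76 to -0.25. A gap of at least 1 was found for 16 higher genes (0.0879%) and 15 lower genes (0.0824%). The number with a wide upward gap was 6 when genes with a mean log2 under 6 over the 18 testis arrays were left out. Most of these genes were thus dim on average over the strains. That mean comes mostly from the 15 arrays of the other strains and does not describe the DBA2/J signal. Under the same rule C57BL/6J testis was apart in 171 genes that were higher (0.94%) and 155 that were lower (0.852%). The counts were 233 (1.28%) and 126 (0.693%) for AKR/J, 123 (0.676%) and 126 (0.693%) for 129S2, 31 (0.17%) and 43 (0.236%) for A/J, and 19 (0.104%) and 35 (0.192%) for C3HeB/FeJ.

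**Figure D1:**
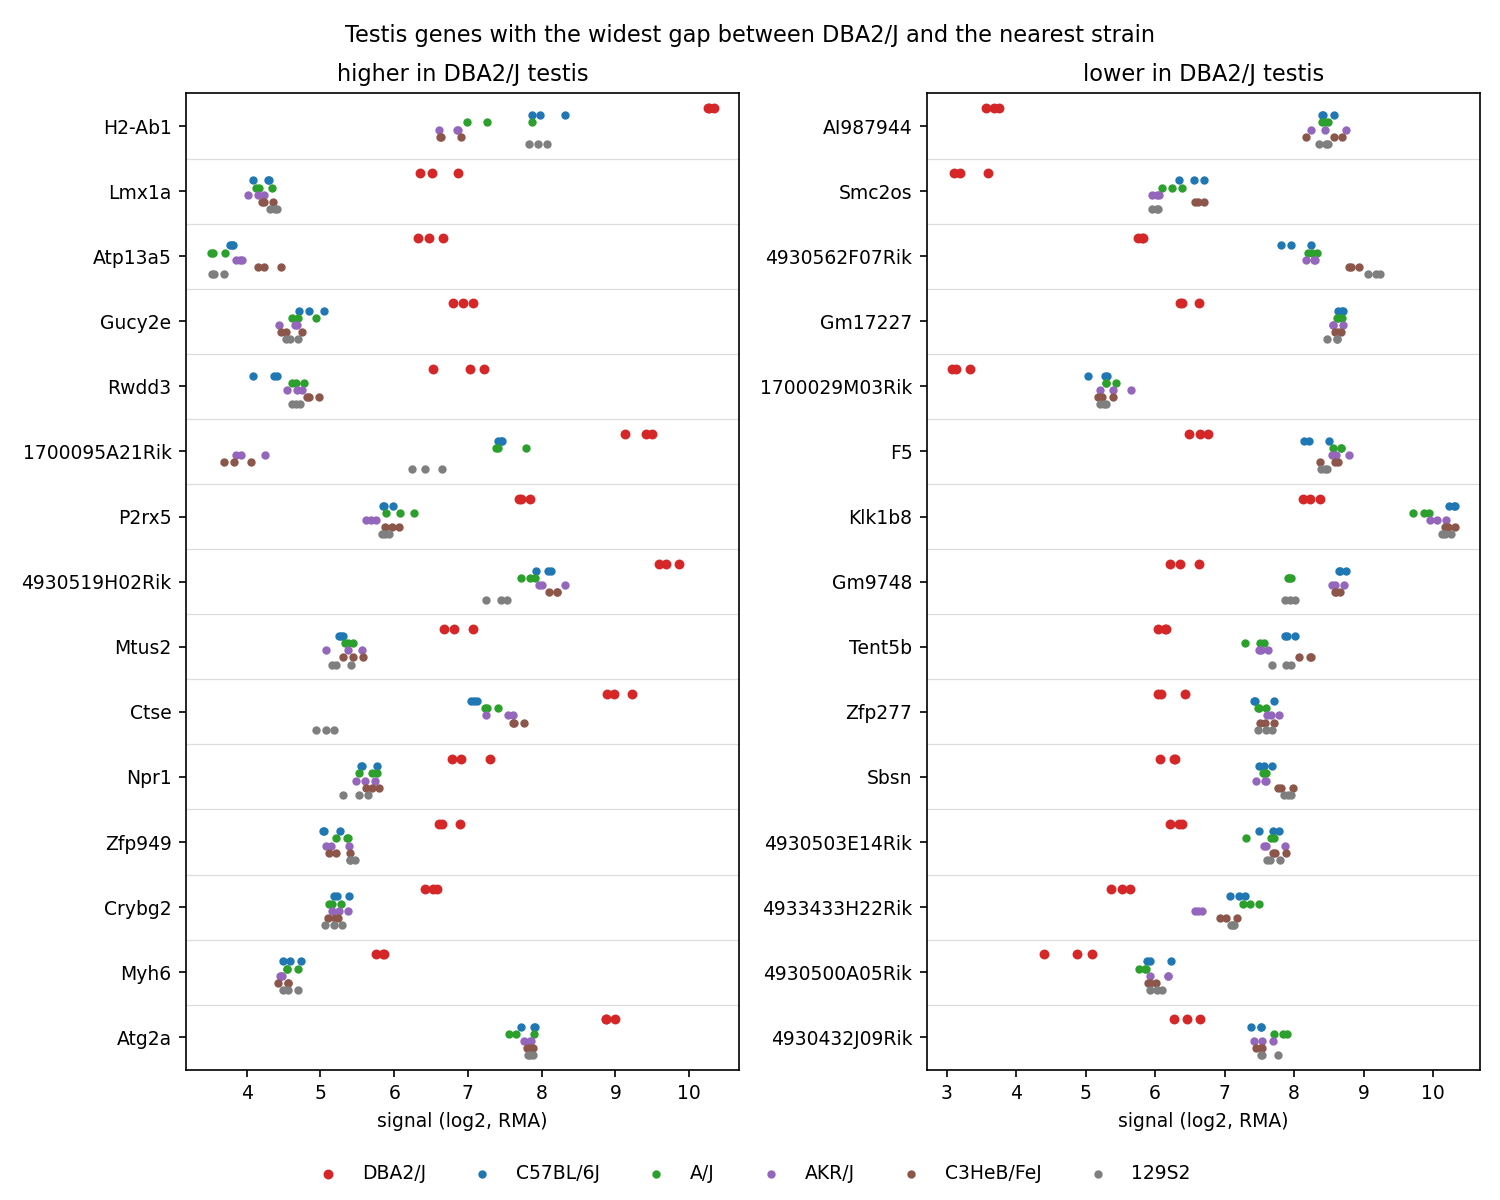
Log2 signal in each of the 18 testis arrays (x axis, points coloured by strain) for the 15 genes with the widest gap in each direction (y axis). DBA2/J points stand to the right of all others in the genes that were higher, with gaps of 1.07 to 2.23, and to the left in the genes that were lower, with gaps of -4.76 to -1.02.

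The widest upward gap belonged to H2-Ab1, which encodes the beta chain of the class II molecule I-A that presents peptides to helper T cells. Its log2 signal was 10.33, 10.25 and 10.27 in the DBA2/J testes, and the other 15 testes gave 6.61 at the lowest, 7.26 at the median and 8.32 at the highest. The groups were far from overlapping, and the C57BL/6J mean of 8.06 was the nearest. DBA2/J exceeded the mean of the other strains by 2.91 ± 0.126 (SE), a 7.52-fold difference (adjusted p = 1.36e-11, limma). The other 2 probe sets of the gene gave differences of 2.60 and 2.70. As background, DBA/2 mice carry the d haplotype of the H2 complex, which none of the other 5 strains carries in the class II region. Signal on these arrays is hybridisation to short probes, so the sequence of a strain under a probe is part of what is measured, and its share in any difference given here was not tested.

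H2-Ob stands next to H2-Ab1 in the gene order and encodes the beta chain of the H2-O molecule, which restrains peptide loading of class II. Its signal was 4.20, 4.11 and 4.37 in the DBA2/J testes, against 3.15 at the lowest, 3.42 at the median and 3.55 at the highest in the others. The groups did not overlap, but both lay well below the array median, and the difference was 0.84 ± 0.0656 (SE, adjusted p = 4.17e-08, limma). H2-Ab1 and H2-Ob were 1 of 2 pairs of neighbouring genes that were apart together with gaps of at least 0.5. The RefSeq table of start sites (GRCm38.p6) gave the following 300-base window around the start of H2-Ob, on the plus strand at chr17:34238655-34238954. The capitals mark a CCAAT motif, read on the opposite strand as ATTGG, and the letters CCTAGCAAC, the beginning of an X box of the kind found before class II genes.
H2-Ob: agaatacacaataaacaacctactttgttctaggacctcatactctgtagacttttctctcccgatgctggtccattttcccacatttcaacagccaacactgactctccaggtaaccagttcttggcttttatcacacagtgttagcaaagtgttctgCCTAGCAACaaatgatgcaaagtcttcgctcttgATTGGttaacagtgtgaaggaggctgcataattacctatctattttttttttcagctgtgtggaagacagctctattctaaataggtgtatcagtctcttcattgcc

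The CCAAT letters were found on either strand in 37.4% of the 32851 windows of the table, and CCTAGCAAC in 0.804%. The windows of the class II genes H2-Aa and H2-Eb1 held the CCAAT letters but not the exact letters CCTAGCAAC, and only these were searched for. The H2-Eb1 window held the same letters apart from the first, which was A. H2-Ab1 had no window in the table. A match describes the letters and does not show that a factor binds there.

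The class II genes went both ways. Of 10 measured, 3 were higher (7.43% of all genes) and 2 lower (9.01%) in DBA2/J testis. The median difference of the 10 was 0.11 where all genes had 0.01. Besides H2-Ab1 and H2-Ob the third that was higher was Ciita, the master regulator of class II genes, with a difference of 0.23 (adjusted p = 0.0258, limma). Cd74, the invariant chain that guides class II molecules through the cell, had signals of 7.02, 6.59 and 6.54 in the DBA2/J testes and ranged between 6.58 and 8.92 in the others, with a median of 7.26. The groups overlapped through AKR/J and C3HeB/FeJ, and the mean difference was -0.71 (adjusted p = 0.00846, limma), which was no longer called without DBA2/J replicate 2 (adjusted p = 0.058) or 3 (adjusted p = 0.070). H2-Aa, the alpha chain that pairs with H2-Ab1, differed by -0.78 (adjusted p = 0.049, limma), a call lost in 19 of 26 alternatives. H2-Eb1, the beta chain of the second class II molecule, differed by -0.40 and was not called (adjusted p = 0.0633, limma).

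Among 14 genes of class I presentation 3 were higher (7.43% of all genes) and none was lower (9.01%). H2-K1, a heavy chain of class I, had signals of 9.75, 9.68 and 9.79 in DBA2/J, against 7.06 at the lowest, 7.30 at the median and 9.98 at the highest in the others. C57BL/6J (mean 9.82) and 129S2 (9.92) stood with DBA2/J, and A/J (7.27), AKR/J (7.19) and C3HeB/FeJ (7.19) stood well below. The difference from the mean of the 5 strains was 1.46 (adjusted p = 3.60e-11, limma), and the 3 other probe sets gave 0.04 to 0.18. Tap2, a subunit of the peptide transporter, differed by 0.23 and Psmb9, a subunit of the immunoproteasome, by 0.33. Each of these calls was lost without 1 DBA2/J array, replicate 1 for Tap2 (adjusted p = 0.053, limma) and replicate 3 for Psmb9 (adjusted p = 0.051). B2m, the light chain of class I, differed by -0.60 and was not called (adjusted p = 0.106, limma).

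**Figure D2:**
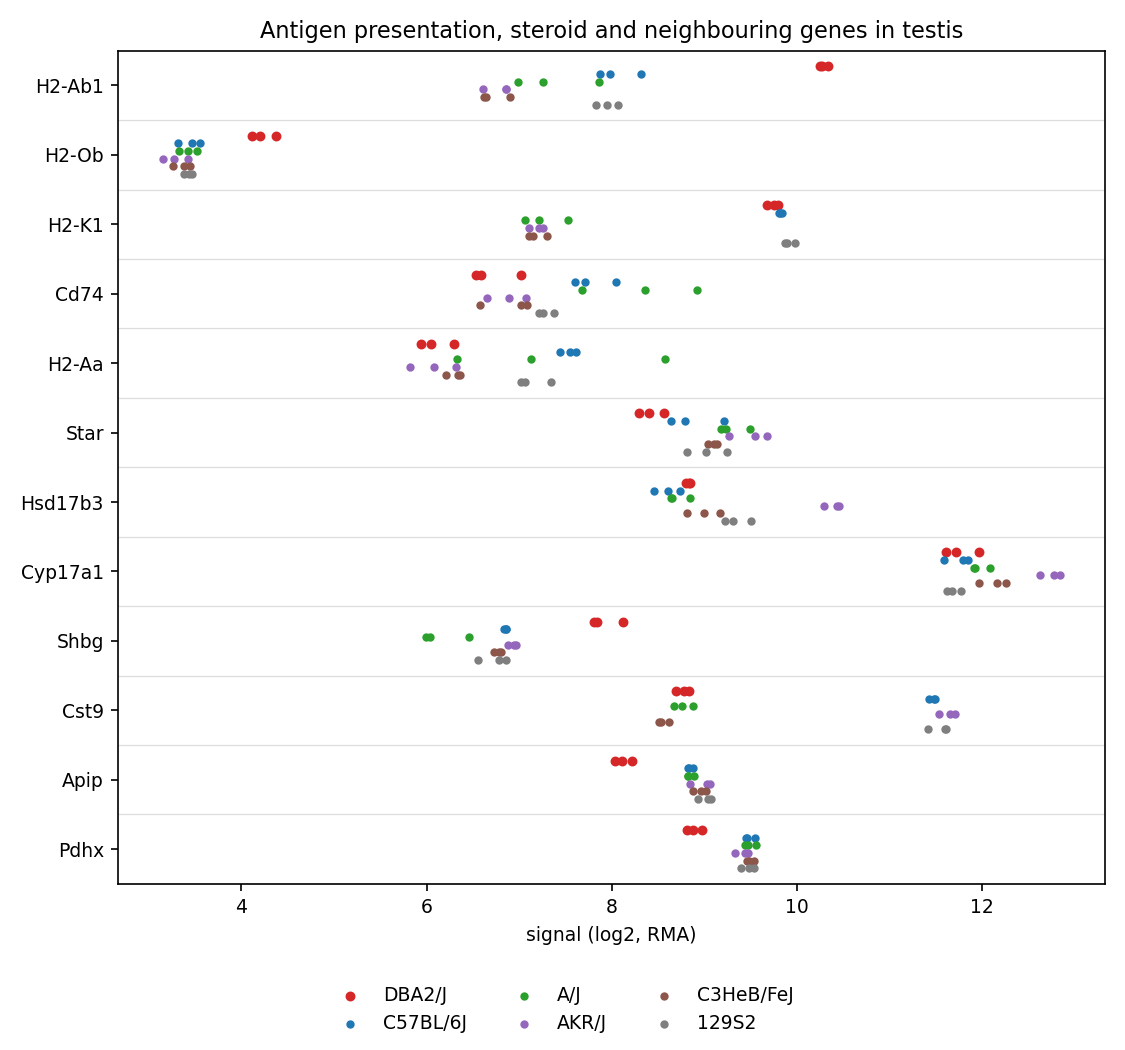
Log2 signal in each of the 18 testis arrays (x axis, points coloured by strain) for genes of antigen presentation, steroid synthesis, Sertoli cells and a neighbouring pair (y axis). H2-Ab1 stands alone at 10.25 to 10.33 in DBA2/J, H2-K1 is shared with C57BL/6J and 129S2, and Star, Apip and Pdhx lie below all other arrays.

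Several of the other genes with wide upward gaps are known from outside the testis. Lmx1a, a homeodomain factor of midbrain dopamine neurons, had signals of 6.86, 6.35 and 6.51 in DBA2/J testes, against 4.01 at the lowest, 4.24 at the median and 4.41 at the highest in the others. The groups did not overlap, and the gap to 129S2 was 2.20, with signals in the other strains too dim for a fold to be given. Gucy2e, a guanylate cyclase of the retina, had 7.08, 6.80 and 6.93 in DBA2/J and a range of 4.44 to 5.04 elsewhere, with a median of 4.69. Its gap of 2.07 was nearly as wide, and all 5 other strains lay together.

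Atp13a5, a P-type ATPase of the membrane, had signals of 6.33, 6.66 and 6.47 in DBA2/J, against 3.52 at the lowest, 3.80 at the median and 4.46 at the highest in the others. The gap was 2.20, and its second probe set gave a difference of 0.95 against 2.65 for the one used. P2rx5, an ion channel opened by ATP, had 7.72, 7.69 and 7.84 in DBA2/J and 5.62 to 6.27 in the others, with a median of 5.88 and no overlap. Myh6, the alpha heavy chain of cardiac myosin, had 5.86, 5.85 and 5.76 against a range of 4.43 to 4.73, and its other probe set differed by 0.20.

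Rwdd3, which enhances the attachment of SUMO to proteins, had signals of 6.52, 7.03 and 7.22 in DBA2/J testes and 4.09 to 4.98 in the others, with a median of 4.67. The groups did not overlap and the difference was 2.29, but its other probe sets gave 1.36 and 0.01, and with the probe set brightest in testis the gene was not called (adjusted p = 0.958, limma). Mtus2, a microtubule-associated protein, differed by 1.51 (DBA2/J 7.07, 6.81 and 6.67), and its other probe sets gave 1.97 and 0.06. With the probe set brightest in testis it too was not called (adjusted p = 0.668, limma). Ctse, the aspartic protease cathepsin E, differed by 2.11 (DBA2/J 8.88, 9.22 and 8.98), and its second probe set gave 0.06.

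Npr1, the guanylyl cyclase receptor of natriuretic peptides, had signals of 6.90, 7.30 and 6.79 in DBA2/J testes, against 5.30 at the lowest, 5.62 at the median and 5.79 at the highest elsewhere. Atg2a, which transfers lipid to growing autophagosomes, had 8.87, 8.88 and 9.0, against 7.55 to 7.91. It was among the brighter genes with a wide gap, and its groups did not overlap. The zinc finger gene Zfp949 differed by 1.45 and by 1.14 on its second probe set, and Crybg2, of the crystallin family, by 1.29. Of the genes known by clone symbols, 1700095A21Rik had 9.50, 9.14 and 9.42 in DBA2/J, against 3.69 at the lowest, 6.42 at the median and 7.79 at the highest in the others. This gene varied widely among the others too, with means of 7.52 in A/J and 7.44 in C57BL/6J and of 3.86 in C3HeB/FeJ and 4.01 in AKR/J. 4930519H02Rik had 9.69, 9.60 and 9.86 in DBA2/J, against 7.25 to 8.32 elsewhere.

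The widest gap in either direction was that of AI987944. Its signals were 3.69, 3.56 and 3.76 in the DBA2/J testes, against 8.18 at the lowest, 8.45 at the median and 8.75 at the highest in the others. The 5 other strain means lay between 8.43 and 8.48, and the gap was -4.76 (adjusted p = 4.46e-14, limma). The DBA2/J signal is dim and was not shown to be above background, so no fold is given. Only 1 probe set represents the gene. Smc2os, a transcript of the strand opposite to the condensin gene Smc2, had 3.10, 3.19 and 3.60 in DBA2/J and a range of 5.95 to 6.71 in the others, with a median of 6.25.

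Other transcripts known by clone or predicted symbols made up much of the low end, with 8 of the 15 genes with the widest downward gaps. 4930562F07Rik had signals of 5.81, 5.76 and 5.82 in DBA2/J testes, against 7.81 at the lowest, 8.30 at the median and 9.24 at the highest in the others. Gm17227 had 6.36, 6.39 and 6.63, against 8.47 to 8.71. No array of another strain came within 1 log2 unit of DBA2/J in these genes. 1700029M03Rik had 3.34, 3.08 and 3.13, against 5.04 to 5.65, and its second probe set differed by -1.98, close to the -2.12 of the first. The gaps of Gm9748, 4930503E14Rik, 4933433H22Rik, 4930500A05Rik and 4930432J09Rik were between -1.53 and -1.02.

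F5, coagulation factor V, had signals of 6.49, 6.64 and 6.76 in the DBA2/J testes, against 8.15 at the lowest, 8.55 at the median and 8.79 at the highest in the others. The groups did not overlap, the difference was -1.88 ± 0.0739 (SE, adjusted p = 3.50e-12, limma), and the second probe set gave -0.38. Klk1b8, a serine protease of the kallikrein family, had 8.37, 8.23 and 8.12 in DBA2/J, against 9.71 to 10.31 in the others. Kallikrein genes have near-identical copies, as do the Adam6, class I and glutathione transferase genes, and which copy a probe set reads was not settled here. Tent5b, of a family of poly(A) polymerases, had 6.04, 6.15 and 6.15 in DBA2/J and 7.30 to 8.24 elsewhere. Zfp277, a zinc finger protein, differed by -1.40 and by 0.09 on its second probe set. Sbsn, a secreted protein of the epidermis, differed by -1.48, and its other probe sets gave -1.92 and -0.10.

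The second pair of neighbouring genes apart together was Apip and Pdhx, which are transcribed away from each other with starts 162 bases apart. Apip is an enzyme of methionine salvage, and Pdhx holds the E3 enzyme in the pyruvate dehydrogenase complex. Apip signals were 8.03, 8.22 and 8.11 in DBA2/J testes, against 8.82 at the lowest, 8.89 at the median and 9.08 at the highest in the others. Pdhx signals were 8.88, 8.98 and 8.81, against 9.33 at the lowest, 9.47 at the median and 9.56 at the highest. Neither gene's groups overlapped, and the differences were -0.81 for Apip and -0.58 for Pdhx (adjusted p = 2.45e-09 and 6.85e-08, limma). The stretch between the starts lies inside the window of Apip at chr2:103073425-103073724 on the plus strand (RefSeq, GRCm38.p6). That window shares 261 bases with the window of Pdhx. The capitals mark the 1 CCAAT motif, here as ATTGG. The motif lies on the transcribed side of the Pdhx start and not between the starts.
Apip: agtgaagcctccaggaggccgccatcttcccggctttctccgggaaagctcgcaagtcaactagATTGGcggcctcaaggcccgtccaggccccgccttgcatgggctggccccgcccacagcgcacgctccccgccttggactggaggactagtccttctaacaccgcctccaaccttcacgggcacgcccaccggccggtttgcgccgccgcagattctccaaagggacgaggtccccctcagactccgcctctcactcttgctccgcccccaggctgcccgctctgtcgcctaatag

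In all, 8 neighbouring pairs among 18032 ordered genes were apart in the same direction, and the remaining 6 had smaller gaps in at least 1 of the genes.

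The genes apart in testis were followed into the other organs, which came from the same DBA2/J animals. In some of the other strains, brain, heart and lung came wholly or partly from other animals than testis. Of the 75 genes that were higher, 41 were called in the same direction in none of the 5 other tissues and 9 in all of them. Of the 95 that were lower, 33 were called in none and 14 in all. The signal levels of these genes in the other tissues are not given here. A gene too dim there could show no difference, so a missing call does not mean a difference confined to testis. In kidney 23 of the 75 were higher, where 12.4% of all genes were, and 45 of the 95 were lower, where 11.6% of all genes were. In liver 12 of the 75 were higher (5.55% of all genes) and 27 of the 95 lower (6.47%). In brain the counts were 21 (5.85%) and 37 (4.66%), in heart 18 (8.67%) and 24 (4.81%), and in lung 19 (6.71%) and 31 (5.34%).

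The difference in testis was compared with the mean difference in the other 5 tissues in a single model of the arrays of all tissues. It was larger in testis, in the same direction, in 68 of the 75 higher genes and in 74 of the 95 lower genes. Over all genes 16.3% differed in either direction, but the 75 and 95 were chosen for their difference in testis, so these counts describe them and test nothing. H2-Ab1 was not called in brain (0.13), heart (0.10), kidney (-0.22), liver (-0.27) or lung (0.28). Lmx1a and Gucy2e were likewise called in testis alone, with differences between -0.12 and 0.14 elsewhere. F5 was lower in testis (-1.88) and liver (-0.41) and higher in kidney (1.45). P2rx5 was higher in testis (1.85) and heart (0.35) and lower in kidney (-0.68).

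Other genes moved the same way in every organ. Ctse was higher in all 6 tissues, by 0.65 in liver and 3.23 in kidney. Rwdd3 (0.61 to 1.19 in the other organs) and Zfp949 (0.46 to 1.51) were also higher throughout. AI987944 was lower by 0.90 to 1.35 log2 units in the other 5 organs, and Zfp277 differed by -2.40 in heart and -1.12 in brain. Psmb6, a catalytic subunit of the proteasome, was lower in every organ, with differences of -0.63 in testis and -0.81 to -0.51 in the others.

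**Figure D3:**
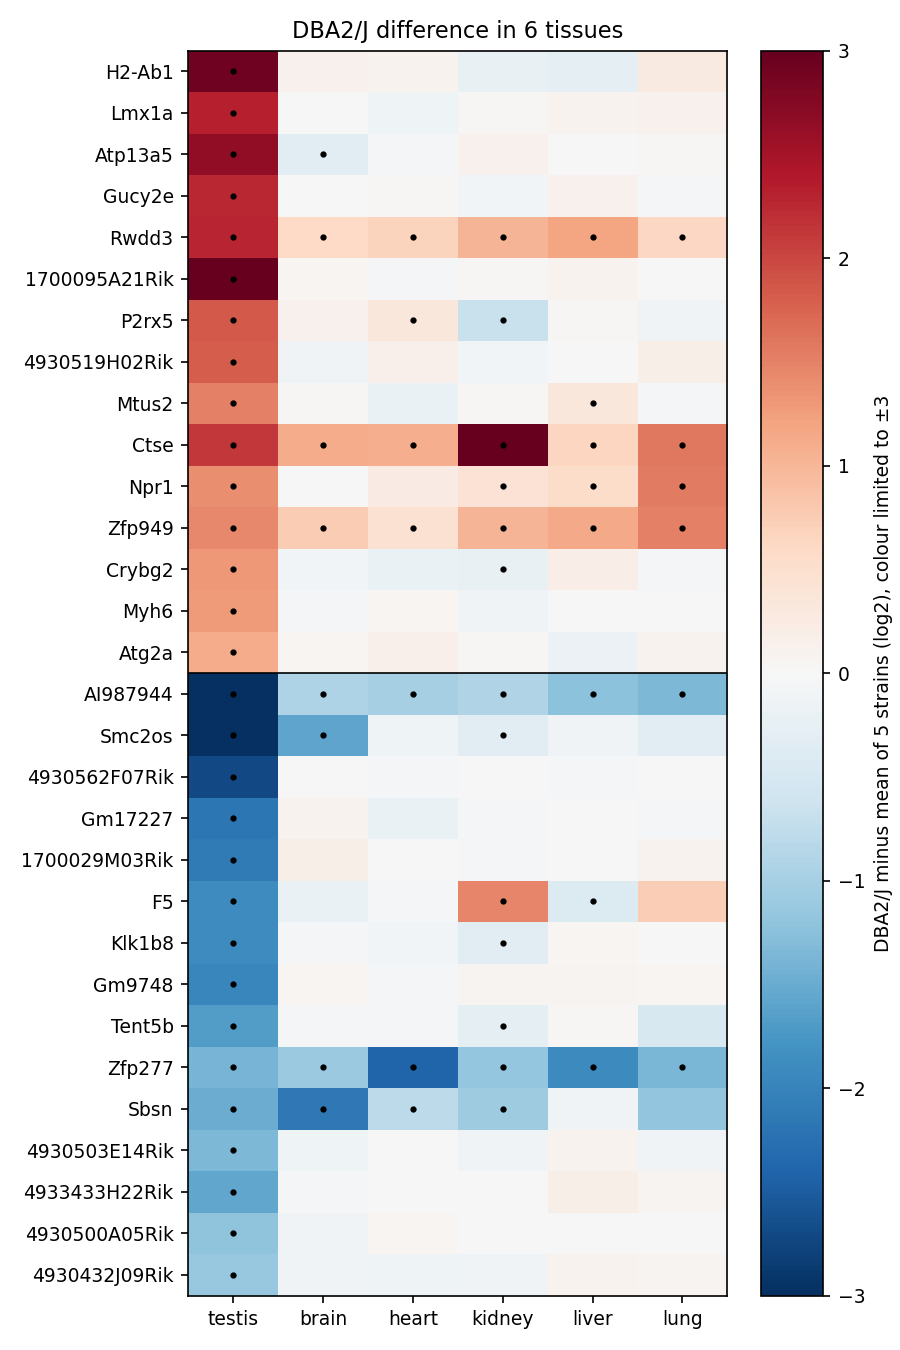
Difference between DBA2/J and the mean of the 5 other strains (colour, log2, limited to ±3) in 6 tissues (columns) for the 15 genes with the widest gap in each direction in testis (rows). Dots mark an adjusted p under 0.05 within the tissue, and dots in all 6 columns are seen for Rwdd3, Ctse, Zfp949, AI987944 and Zfp277.

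Among the somatic cells of the testis, 5 of 8 Leydig cell genes were lower in DBA2/J and none was higher, where 9.01% of all genes were lower, with a median difference of -0.22. Without DBA2/J replicate 1 or 3 the number was 3. The mean signal of the list was 9.48 to 9.61 on the DBA2/J arrays and overlapped with the others at 9.49 to 10.32. In whole tissue, fewer cells of a type and less RNA per cell cannot be told apart. Star, the protein that carries cholesterol into mitochondria for steroid synthesis, had signals of 8.41, 8.57 and 8.30 in DBA2/J testes, against 8.64 at the lowest, 9.19 at the median and 9.68 at the highest in the others. The groups did not overlap, the difference was -0.74 ± 0.108 (SE, adjusted p = 7.64e-05, limma), and the other 2 probe sets gave -0.90 and -0.86. The gap to C57BL/6J of -0.46 did not pass the rule for a gene apart (adjusted p = 0.292, limma).

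The remaining Leydig cell genes were less clear of the other strains. Hsd17b3, which makes testosterone from androstenedione, had 8.85, 8.80 and 8.83 in DBA2/J testes and 8.46 to 10.46 in the others, with a median of 9.0. C57BL/6J (mean 8.60) and A/J (8.71) lay below DBA2/J and AKR/J (10.40) far above, so the difference of -0.38 was not one of DBA2/J alone. Cyp17a1, the enzyme before it in the pathway, differed by -0.29, a call lost without DBA2/J replicate 1 (adjusted p = 0.076, limma) or 3 (adjusted p = 0.131). DBA2/J had a mean of 11.77, with C57BL/6J (11.75) and 129S2 (11.69) beside it and AKR/J again highest at 12.75. Nr5a1, the factor that switches steroid genes on, differed by -0.26, and its second probe set gave 0.06 at a dim 4.93. The Nr5a1 call was lost with the mean of all probe sets (adjusted p = 0.231, limma). Fdx1, which passes electrons to steroid enzymes, differed by -0.17. Cyp11a1, Hsd3b1 and Scarb1 were not called, at -0.04, -0.17 and -0.08.

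Steroid synthesis starts from cholesterol, and 4 of 17 genes of cholesterol synthesis were lower (9.01% of all genes) while none was higher (7.43%). The number of lower genes was 2 without DBA2/J replicate 1 and 6 without replicate 2. Sc5d, a late enzyme of the pathway, had signals of 6.91, 7.04 and 6.84 in DBA2/J testes, against 7.40 at the lowest, 8.09 at the median and 8.60 at the highest in the others. It was apart from all 5 strains, and it was lower in the other 5 organs too, by 0.43 to 1.39 log2 units. Msmo1 (-0.41) and Ebp (-0.34), which act on sterols late in the pathway, and Hmgcs1 (-0.28), which acts early, were lower in testis and overlapped with other strains. AKR/J stood highest in each of them, and for Msmo1 the 129S2 mean (7.63) lay below that of DBA2/J (7.71). The calls of Msmo1 and Hmgcs1 were lost without DBA2/J replicate 1, and that of Hmgcs1 also with all tissues in the fit.

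Sertoli cell genes went both ways, with 1 of 19 higher (7.43% of all genes) and 5 lower (9.01%). Without DBA2/J replicate 1 the number of lower genes was 3. Shbg, the androgen-binding protein that Sertoli cells secrete into the tubule, had 8.12, 7.81 and 7.85 in DBA2/J testes, against 5.99 at the lowest, 6.80 at the median and 6.97 at the highest in the others. It was apart from all strains, with a difference of 1.24 ± 0.0826 (SE, adjusted p = 5.14e-09, limma). Cst9, a cystatin of Sertoli cells, had 8.84, 8.69 and 8.78 in DBA2/J. The other strains split, with A/J (mean 8.77) and C3HeB/FeJ (8.56) beside DBA2/J and C57BL/6J (11.47), AKR/J (11.64) and 129S2 (11.55) far above. Cldn11, a claudin of the blood-testis barrier, differed by -0.29 and Inha, the inhibin alpha chain, by -0.27.

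Macrophage genes were lower in DBA2/J testis in 8 of 12 cases (9.01% of all genes) and higher in 1 (7.43%). The median of the 12 was -0.35 where the median of all genes was 0.01. The mean signal of the list was 7.34, 7.39 and 7.41 on the DBA2/J arrays, against 7.48 at the lowest, 7.59 at the median and 8.0 at the highest on the others, with no overlap. Ctss, a lysosomal protease that trims the invariant chain, had 6.81, 6.59 and 6.66, against 6.85 to 8.17. The complement genes C1qb and C1qc differed by -0.49 and -0.55 and overlapped with other strains, and Fcgr3, a receptor for antibody, by 0.50. For Fcgr3 the DBA2/J mean of 9.49 lay below those of A/J (9.56), C3HeB/FeJ (9.63) and 129S2 (9.83), and C57BL/6J (7.70) and AKR/J (8.25) were the low strains. Cd74 and H2-Aa are made by macrophages and other presenting cells, and the part of the lower macrophage list in their values was not tested. H2-Ab1 was higher on the same arrays.

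Glutathione transferases join glutathione to reactive compounds. Of 23 measured, 8 were lower and 1 higher, where 9.01% and 7.43% of all genes were, and 5 were lower without DBA2/J replicate 2. Gsta3, an alpha class member, had 7.79, 7.81 and 7.63 in DBA2/J testes, against 8.14 at the lowest, 8.44 at the median and 9.35 at the highest elsewhere. It was apart from all 5 strains, and its second probe set gave -0.56 beside -0.85. Gstm1 (-0.49), Gstm2 (-0.38) and Mgst1 (-0.38) did not overlap with the other strains either but had gaps that did not pass. Mgst2 differed by 0.34.

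**Figure D4:**
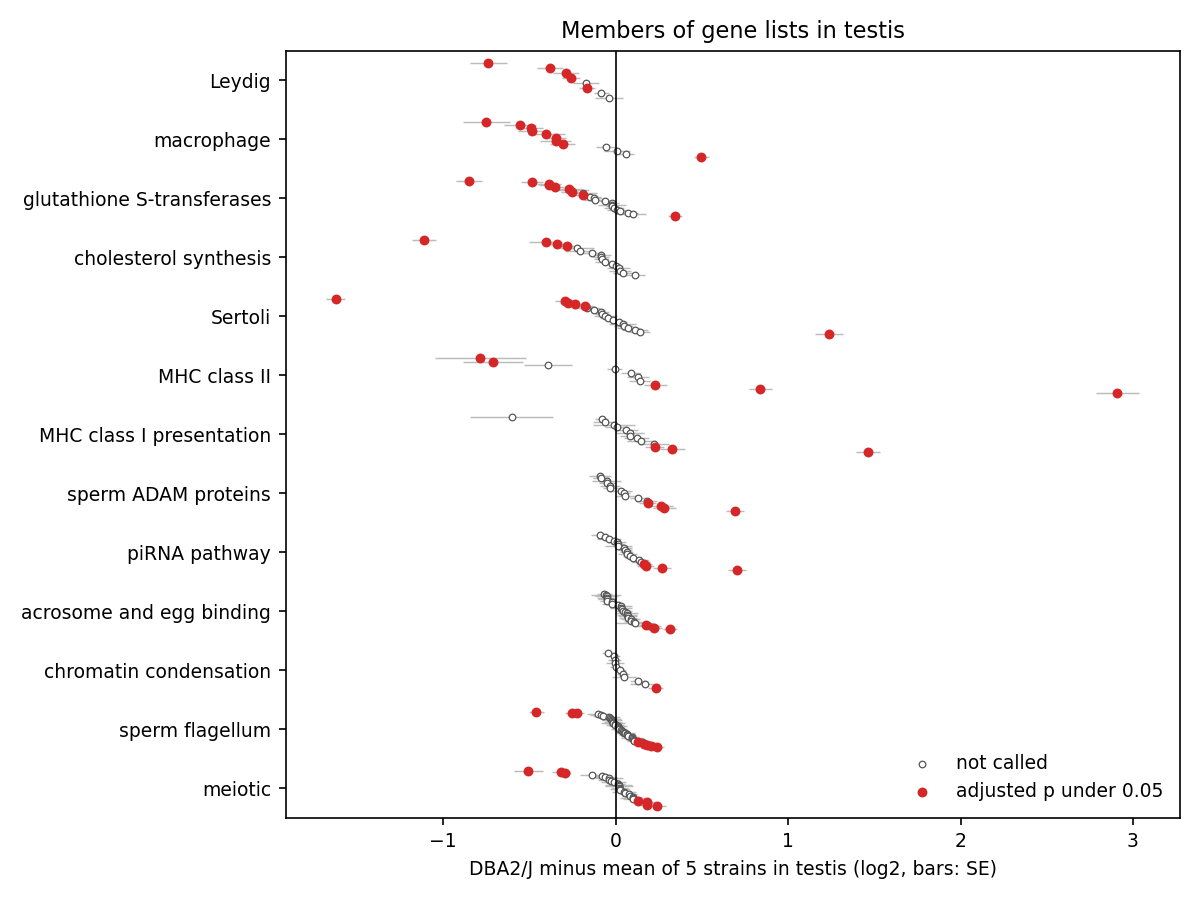
Difference between DBA2/J and the mean of the 5 other strains (x axis, log2) for each measured member of 13 gene lists (y axis), with bars of 1 SE and filled points for an adjusted p under 0.05. Leydig cell and macrophage genes lie mostly left of zero, with medians of -0.22 and -0.35, and germ cell lists centre near zero.

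Germ cell genes showed mostly small differences, and their counts stand beside 7.43% of all genes higher and 9.01% lower. Of 15 genes of spermatogonia 1 was higher and 1 lower, of 28 meiotic genes 4 and 3, of 40 flagellum genes 5 and 3, and of 16 genes of sperm energy metabolism 2 and 1. In the lists of the acrosome (26 genes), the piRNA pathway (19) and sperm ADAM proteins (15), 3, 4 and 4 genes were higher and none was lower. The medians lay between 0.02 and 0.11. The numbers of higher genes depended on single arrays: without DBA2/J replicate 1, 1 ADAM, 2 piRNA and 2 flagellum genes were higher, and without replicate 3, 1 meiotic, 2 piRNA and 2 flagellum genes. Without replicate 2 there were 2 meiotic and 3 flagellum genes, and with all tissues in the fit 1 meiotic, 1 flagellum and 2 piRNA genes.

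A few germ cell genes were apart from all strains. Tdrd12, a Tudor-domain protein needed to make piRNAs, had signals of 9.73, 9.68 and 9.72 in DBA2/J testes, against 8.74 at the lowest, 9.05 at the median and 9.25 at the highest elsewhere. The groups did not overlap and the difference was 0.70 ± 0.0527 (SE, adjusted p = 2.36e-08, limma). Adam6b, a sperm surface protein of the ADAM family, had 9.44, 9.43 and 9.22, against 8.37 to 8.98. Adcy10, the soluble adenylyl cyclase that sperm need for motility, differed by 0.31, and Tekt1, a tektin of flagellar microtubules, by -0.46.

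Other called members of these lists overlapped with at least 1 strain or had gaps that did not pass. Mybl1, a master factor of meiosis, differed by -0.51, Syce2 of the synaptonemal complex by -0.30, and Ccna1, the germ cell cyclin, by 0.24. For Mybl1, C3HeB/FeJ stood far above the rest at a mean of 9.62, with DBA2/J at 8.09 and 129S2 at 8.19. For Ccna1, AKR/J stood low at 9.77, and C57BL/6J (10.42) lay beside DBA2/J (10.40). Kit, the stem cell factor receptor of differentiating spermatogonia, had 6.46, 6.45 and 6.57 in DBA2/J and 6.58 to 7.84 elsewhere, a difference of -0.52. Prm3, a protamine family member, differed by 0.23, and Prm1, Prm2, Tnp1 and Tnp2, which package sperm chromatin, differed by -0.01 to 0.02 and were not called.

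Of the further somatic cells of the testis, none of 7 peritubular or 9 endothelial genes was called. A difference above 0 was found for none of the 7 peritubular genes (median -0.10) and for 4 of the 9 endothelial genes. The mean signal of the peritubular list was 8.56 to 8.60 in DBA2/J and 8.43 to 9.63 in the others. Cell types that a dissected testis could carry along gave few calls, where 7.43% of all genes were higher and 9.01% lower. None of 5 adipose genes was called, and none had a difference above 0 (median -0.11). Their mean signal was 5.73 to 6.17 in DBA2/J and 5.82 to 6.77 in the others. Rnase10, which epididymal epithelium secretes, was higher with 5.88, 5.69 and 5.65 in DBA2/J testes, against 3.92 at the lowest, 4.10 at the median and 5.72 at the highest, a value from C57BL/6J. It was the 1 gene called of 8 epididymal genes, whose mean was 4.92 to 5.58 in DBA2/J and 4.55 to 6.08 in the others. Cd3d, a chain of the T cell receptor complex, was the 1 gene of 8 lymphocyte genes that was higher (8.37, 8.28 and 8.42), and C3HeB/FeJ stood beside it at a mean of 8.31. Alas2, the heme enzyme of red cell precursors, differed by -0.25.

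Large differences were often shared with another strain, which the rule for a gene apart removes. Cyp2c55, a cytochrome P450, was at 4.89, 4.67 and 4.58 in DBA2/J, with C57BL/6J (4.83) and C3HeB/FeJ (4.87) beside it and A/J, AKR/J and 129S2 at 7.84 to 8.20. Zfp748 (-1.28) and Zfp661 (-1.02) were low in DBA2/J and C3HeB/FeJ alike. Kif21a, a kinesin motor, differed by -1.11, and its gap to 129S2 of -0.34 just missed the rule (adjusted p = 0.0684, limma). Slc6a16, a transporter of the neurotransmitter family, differed by 0.53, where AKR/J stood low at 6.47 and the other strain means were near the 9.01 of DBA2/J.

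Broad families were counted too, where 7.43% of all genes were higher and 9.01% lower. Of 309 solute carriers 11 were higher and 33 lower, of 329 Zfp zinc fingers 33 and 38, of 70 cytochromes P450 4 and 5, of 98 genes of oxidative phosphorylation 4 and 5, of 45 ribosomal protein genes 4 and 6, and of 47 proteasome genes 1 and 3. Of 54 kinesins and dyneins 7 were higher and 6 lower, of 58 Trim genes 1 and 4, of 31 testis serine proteases 1 and 2, of 15 tubulins 1 and 2, and of 11 heat shock genes none and 1. None of 39 olfactory receptors was called. Ndufaf5, an assembly factor of respiratory complex I, had 7.82, 7.88 and 7.80 in DBA2/J, against 6.46 to 7.04 elsewhere. It was higher in all 6 tissues. Ndufa4l2, a hypoxia-induced relative of a complex subunit, differed by -0.68 and was apart. Slc20a1, a phosphate transporter, was apart as well with -0.65.

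Interferon-stimulated genes were lower in 3 of 23 cases and higher in none, where 9.01% of all genes were lower and 7.43% higher, so that count lies near the background. Of the 3, Stat2 (-0.66), part of the interferon signal, was also low in C57BL/6J and AKR/J. Of 16 clock genes 2 were higher and 2 lower in testis, with Arntl at -0.29 and Per3 at 0.30. In heart, kidney, liver and lung the same genes differed by 1.63 to 2.17 and by -1.17 to -0.87. These calls in testis were lost without DBA2/J replicate 3 for both genes (adjusted p = 0.083 and 0.166, limma).

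Of 11 genes with variants documented in DBA/2 mice, 2 were higher in testis (7.43% of all genes) and 1 was lower (9.01%). None of them was apart from all 5 strains, where 0.934% of all genes were. Cdh23, cadherin 23 of the inner ear, had 6.56, 6.57 and 6.53, against 5.81 at the lowest, 6.09 at the median and 6.44 at the highest, yet its other probe set gave -0.03. Myo5a, the myosin of the dilute coat colour, differed by -0.36 in testis, a call lost without DBA2/J replicate 2 or 3, and by -2.09 in kidney. Its other probe sets gave -0.60 and -0.40 in testis. Tyrp1, the brown coat colour enzyme, differed by 0.25 at a dim 4.14, a call lost without replicate 1 or 2. Gpnmb, which carries a stop codon in DBA/2J and was lower by 2.68 log2 units in lung, differed by -0.21 in testis and was not called. Klrd1, the CD94 receptor chain of natural killer cells, was lower by 2.59 log2 units in lung and differed by 0.12 in testis at 3.60. Ahr, Alad, Fscn2, Glo1, Hc and Taar1 were not called, with differences of -0.27 to 0.15.

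How far a second probe set bore a gene out varied. Of the 75 higher genes 30 had further probe sets, and at least 1 of these was called the same way for 18 genes and none either way for 12. For 2 of the 18, 1700051A21Rik and Snhg1, at least 1 other was called the opposite way. Of the 95 lower genes 44 had further probe sets, with at least 1 called the same way for 24, the opposite way for 4 and none for 16. In 23 of the 75 and 39 of the 95 genes the DBA2/J mean lay below the array median. The last higher gene inside the rule was 2900092C05Rik (gap 0.32, adjusted p = 0.0477, limma) and the first outside was Tescl (0.23, adjusted p = 0.0508). On the lower side these were Gnmt (-0.32, adjusted p = 0.0477, limma) and Shisa3 (-0.33, adjusted p = 0.0542).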

How the data were processed

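The values are log2 probe set signals as the authors deposited them, and the submitters' processing notes name RMA, in an unstated version, as the method. RMA makes the distributions of arrays alike, so a shift common to all genes would not be seen. The notes do not say if tissues were normalized jointly, so levels were compared within a tissue. No detection call was used.

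Strain, tissue and animal number came from the sample titles. If arrays came from pools, p-values measure only the spread between these samples. Of 45101 probe sets, the controls (64), those listed with more than 1 gene (932) and those with none (9160) were dropped. The other 34945 name 1 gene each, and gene IDs placed 34741 of these in the GRCm38.p6 annotation. A gene took the probe set with the highest mean over all arrays, which gave 18194 genes.

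limma 3.58.1 in R 4.3.3 was run on the 18 testis arrays, giving each strain its own mean, with Benjamini-Hochberg adjustment over all genes, and was tested on simulated data. DBA2/J was set against the mean of the 5 strain means, and against each strain in turn for the genes apart. Other tissues were fitted likewise, and testis was compared with them in a fit of all arrays with the animal as a random block. Numbers in the titles mark no animal shared between strains. The main fit therefore used no pairing. Of 26 pairs of arrays with the same number, 11 had residual correlations above 0.1, with a median of 0.07. They were not set against pairs with different numbers, so a factor shared by number was not tested.

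Genes named were the 15 with the widest gap per direction, up to 4 called members per list by size of the difference, all members of the documented list, neighbouring genes apart together with gaps of at least 0.5, and the 5 per direction with the largest excess in testis over other tissues. Ciita, H2-Eb1, B2m, Fdx1, Cyp11a1, Hsd3b1, Scarb1, Prm1, Prm2, Tnp1, Tnp2, Mgst2, 1700051A21Rik and Snhg1 were added after their values were seen, as were the genes at the edge of the rule. The strain, the rule and the lists were chosen with earlier results of these data known. Alternatives were another variance prior, a filter on dim genes, other choices of probe set, renormalized arrays, a replicate block, all tissues in the fit and leaving out each array.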

Additional observations from a re-analysis of the deposited data

Results flagged for a closer look

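For 34 of the 140 genes named by rule the DBA2/J difference in testis was at least 1 log2 unit away from its mean in the 5 other tissues, and the test of that difference passed (limma, arrays of all tissues, adjusted p under 0.05), which is why they are listed here. Over all genes 2971 (16.3%) passed that test at any size. The values below are the testis difference minus the mean difference of the other tissues, on the log2 scale. The same DBA2/J animals gave all the tissues, but in some of the other strains the animals differed between tissues. The genes were named partly for the size of this value.

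Positive values were found for 1700095A21Rik (3.47), H2-Ab1 (2.91), Atp13a5 (2.71), Lmx1a (2.31), Gucy2e (2.25), P2rx5 (1.90), 4930519H02Rik (1.78), Mtus2 (1.48), Rwdd3 (1.47), Crybg2 (1.37), Rnase10 (1.33), Myh6 (1.29), Shbg (1.20), Per3 (1.08), Atg2a (1.07) and H2-Ob (1.01). Of these, Per3 was lower in DBA2/J in heart, kidney, liver and lung, Atp13a5 in brain (-0.33), and P2rx5 (-0.68) and Crybg2 (-0.22) in kidney.

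Negative values were found for AI987944 (-3.71), 4930562F07Rik (-2.68), Smc2os (-2.50), Cyp2c55 (-2.33), F5 (-2.19), 1700029M03Rik (-2.16), Gm17227 (-2.12), Gm9748 (-2.0), Arntl (-1.88), Klk1b8 (-1.81), 4933433H22Rik (-1.60), Cst9 (-1.56), Tent5b (-1.52), Zfp748 (-1.35), 4930503E14Rik (-1.30), 4930500A05Rik (-1.19), 4930432J09Rik (-1.10) and Kif21a (-1.01). Arntl was higher in DBA2/J in the other 5 tissues, Cyp2c55 was higher in liver (1.67), F5 was higher in kidney (1.45), and AI987944 was lower in every tissue.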

How the results depend on the processing

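The number of higher genes, 1352, was 898 to 1406 when single arrays were left out, the lowest without DBA2/J replicate 3, and the number of lower genes, 1640, was 1116 to 1766. Genes apart numbered 64 to 75 (higher, 75 with all arrays) and 81 to 96 (lower, 95), and those with a gap of at least 1 numbered 15 to 18 and 13 to 16. Genes apart with a larger difference in testis than elsewhere numbered 66 to 68 and 69 to 72 without single DBA2/J animals. With only genes of a mean log2 of at least 6 tested, 6 genes had a wide upward gap in place of 16, since genes with a lower mean were not tested. The replicate number as a block, a pairing not used in the main fit, gave 83 higher and 98 lower genes apart. These held all 75 and 95, and no direction changed. With the probe set brightest in testis, Cdh23 (-0.034) and Clgn (-0.017) turned negative, neither called. Of the 140 named genes, 39 lost their call in at least 1 alternative with the direction kept. Cdh23 lost its call only where it turned negative. Another 3 genes, uncalled in the main fit (Alad, Glo1 and Gpnmb), gained a call. On arrays it is dim signal, and not read depth, that limits what can be seen.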

Other observations

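The following families were picked after their values were seen, so their counts describe and do not test. Aldehyde dehydrogenases oxidise aldehydes, retinal among them, and of 20 measured 6 were lower in DBA2/J testis (9.01% of all genes), 1 was higher (7.43%) and 3 were apart from all 5 strains (0.934%), with a median difference of -0.13 where all genes had 0.01. Aldh1a1, which makes retinoic acid, had signals of 11.20, 11.14 and 11.09 in DBA2/J testes, against 11.61 at the lowest, 11.79 at the median and 13.27 at the highest elsewhere. It did not overlap with any strain, and AKR/J stood highest with a mean of 13.21. Aldh9a1 differed by -0.64 in testis and was also lower in brain, heart, kidney and liver, and Aldh3b1 differed by -0.38. The 3 aldehyde oxidases measured were all lower, and the neighbouring genes Aox3 (-0.71) and Aox4 (-0.56) were apart, Aox4 at a dim 4.0. Aox3 was lower by 2.11 log2 units in liver and by 1.64 in lung.

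FXYD proteins are small partners of the sodium pump, and 3 of the 7 measured were apart in testis, in both directions, where 0.934% of all genes were. Fxyd5 had 8.58, 8.67 and 8.52 in DBA2/J, against 7.36 to 7.80 elsewhere. Fxyd1 had 8.58, 8.48 and 8.48, against 8.90 to 10.13, and Fxyd6 had 7.86, 7.88 and 7.94, against 8.32 to 9.0. None of the 3 overlapped with another strain. Scgb2b27, a secretoglobin, completes the 16 genes with a wide upward gap, with 4.80, 4.44 and 4.70 in DBA2/J, against 3.34 to 3.85 elsewhere.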
